A study of Mus musculus with 8 samples.

Results

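The 10 genes described here encode enzymes that remove superoxide and peroxides: the superoxide dismutases Sod1 and Sod2, catalase (Cat), glutathione peroxidase 1 (Gpx1), and the peroxiredoxins Prdx1 to Prdx6. They were picked by symbol, and no threshold on their values was used. All 10 were found once each among the 55401 genes of the deposited tables, and all 10 passed the abundance filter that left 12122 genes for testing. The samples were AML12 cells, a hepatocyte line established from a mouse carrying a human TGF-alpha transgene. One group was 4 control dishes, kept in another incubator of the same model with the stimulator off. The other group was 4 dishes exposed for 1 h to Opti-ELF-WMF, a pulsed magnetic field with a peak of 100 mG, a pulse width of 4 ms and frequencies stepping from 1 to 8 Hz. The paper states that control and exposed cells came from a single batch, in medium with serum, dexamethasone, insulin, transferrin and sodium selenite. Whether all 8 samples share that batch, and whether each is a separate dish, is not given. Each sample is called a dish here, and p-values measure the spread between the 4 samples of a group. The field and the incubator cannot be told apart. RNA was read by stranded mRNA sequencing, and each dish has a TPM value per gene (reads of a gene divided by its length, scaled so that every dish has the same total).

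Superoxide leaks mainly from the mitochondrial electron transport chain, and superoxide dismutases turn it into hydrogen peroxide. Sod2, a manganese enzyme, does this in the mitochondrial matrix, and Sod1, a copper and zinc enzyme, does it mostly in the cytosol. Catalase in peroxisomes, glutathione peroxidases and peroxiredoxins then reduce hydrogen peroxide to water. Most peroxiredoxins are recharged by thioredoxin, and Gpx1 is recharged by glutathione. Liver is known for its high catalase and peroxiredoxin content.

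Of the genes listed as hepatocyte markers, Hnf4a, Ttr, Krt8 and Krt18 were abundant in every dish. Alb had a mean of 55.1 TPM in control dishes. Apoa1, Serpina1a and Afp, of the same list, were low, with control means of 4.54, 5.66 and 1.03 TPM. Of the bile duct markers, the keratin Krt19 was high, with a mean of 1153 TPM in control dishes. Krt7 and Sox9 had control means of 70.4 and 30.8 TPM, and Epcam had 0.07 TPM. Of 8 hepatocyte markers, all tested, Krt8 and Krt18 were higher and Alb was lower in exposed dishes at an unadjusted limma p-value under 0.05, where 12% of all tested genes were higher and 3.65% lower. The 2 higher markers became 0 after median-of-ratios scaling and 1 (Krt18) after rescaling without the mitochondrial genome, and Alb stayed lower in both. In those settings 5.55% and 5.72% of all tested genes were higher, and 6.23% and 5.58% were lower. The summed level of the 8 markers was 4611 to 4832 TPM in controls and 4900 to 5148 TPM after exposure. Most of that sum was Krt8 and Krt18, with control means of 2248 and 1905 TPM, so its difference mainly follows these genes. By log2 fold change on deposited TPM 4 of the 8 were higher and 4 (Alb, Afp, Ttr and Apoa1) were lower. The part of these differences in the results below was not tested. The summed levels of the marker lists for stellate cells, macrophages and endothelium did not pass 2.52 TPM in any dish, and Lrat, Adgre1, Clec4f and Cdh5 were at or near 0. The transcripts of the mitochondrial genome took up 8.94% ± 0.34 (SD, n = 4) of the TPM total in controls and 7.04% ± 0.76 (SD, n = 4) after exposure, and TPM has a fixed total over all genes. The median log2 fold change of all tested genes was 0.026 on deposited TPM, -0.0013 after median-of-ratios scaling (which sets the typical gene to the same level in every dish) and -0.0015 after TPM was rescaled without the mitochondrial genome. Differences of the members are given beside that shift, and values after scaling are added where they change a direction or a count.

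Sequences are shown for the features that set members apart. Gpx1 is a selenoprotein: its catalytic residue is selenocysteine, read from a TGA codon that would otherwise stop translation. The thioredoxin reductases Txnrd1 and Txnrd2, which recharge the thioredoxins that serve the peroxiredoxins, and Gpx4, the phospholipid hydroperoxide peroxidase, carry the same kind of codon. In the GENCODE M21 transcripts (GRCm38) the codon lies at chr9:108339451-108339453 for Gpx1, where it is codon 47 of 201, at chr10:80054737-80054739 for Gpx4, at chr10:82896037-82896039 for Txnrd1 and at chr16:18477772-18477774 for Txnrd2, all on the plus strand. The coding sequence around it is given 5′ to 3′, with the selenocysteine codon in capitals.
Gpx1: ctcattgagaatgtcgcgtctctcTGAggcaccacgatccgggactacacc
Gpx4: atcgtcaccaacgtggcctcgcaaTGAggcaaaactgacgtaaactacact
Txnrd1: ggagacatcctccagtctggctgcTGAggt
Txnrd2: ctggagcctactgtgactggttgcTGAggc
In both peroxidases the codon sits inside the coding sequence, and in both reductases it is the codon before the last.

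Several antioxidant genes are known targets of the transcription factor NRF2, which binds antioxidant response elements with the core TGACNNNGC. RefSeq promoter windows (GRCm38.p6, from 250 bases before to 50 bases after the start site) were matched for 9 of the 10 members, all except Prdx6. On either strand, the core occurred in the windows of 2 members, Prdx1 and Sod1, while 12.4% of all 32851 windows held it. Both matches are on the strand opposite to the gene, so they read as the reverse complement, which is in capitals here with 10 bases on each side, 5′ to 3′ on the gene's strand.
Prdx1, chr4:116685456-116685484, plus strand: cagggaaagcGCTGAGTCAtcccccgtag
Sod1, chr16:90220696-90220724, plus strand: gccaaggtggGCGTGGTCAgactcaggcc
The Prdx1 match begins 133 bases before the start site and also contains the AP-1 motif TGACTCA, and the Sod1 match begins 56 bases before it and does not. A match is a description of letters only.

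Levels of the 10 transcripts differed far more between genes than between conditions. TPM is a level per length, so genes can be compared. Prdx1, the main cytosolic thioredoxin-dependent peroxidase, was the most abundant, at rank 95 of the 12122 tested genes, and it made up between 35.2% and 37.1% of the summed TPM of the members in each dish. Gpx1 followed, and then Prdx6, Prdx2, Sod1 and Prdx5. Cat, Prdx3, Sod2 and Prdx4 came last, with Prdx4, the endoplasmic reticulum peroxiredoxin, at rank 2404. The ranges over the 8 dishes were separate between Prdx1 and Gpx1, Gpx1 and Prdx6, Prdx5 and Cat, Cat and Prdx3, and Prdx3 and Sod2. They overlapped between Prdx6 and Prdx2, Prdx2 and Sod1, Sod1 and Prdx5, and Sod2 and Prdx4. Within a dish the order was nevertheless steady: of the 9 neighbouring pairs only Prdx6 and Prdx2 changed places, with Prdx6 above Prdx2 in 6 of 8 dishes. Together the members summed to 4029 ± 65 TPM (SD, n = 4) in controls and 4224 ± 80 TPM (SD, n = 4) after exposure, about 0.4% of all TPM. The groups overlapped, with 4126 TPM in control replicate 1 and 4123 TPM in exposed replicate 4. These sums are on deposited TPM, and sums after scaling are not given here.

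**Figure D1:**
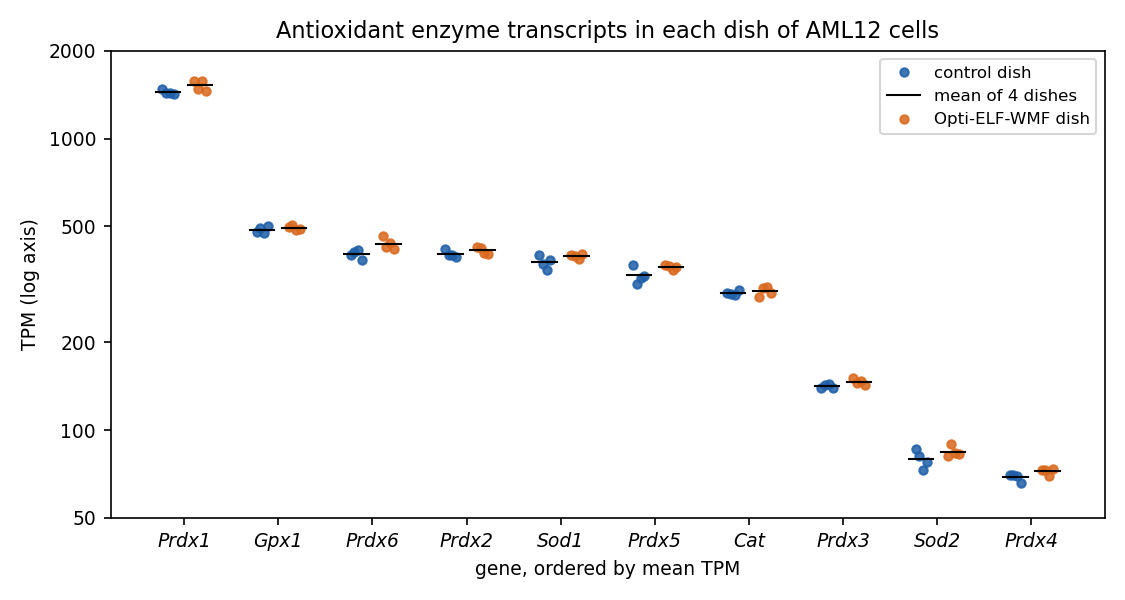
TPM on a log axis for the 10 antioxidant enzyme genes, with 1 point per dish (blue control, orange Opti-ELF-WMF) and a bar at the mean of 4 dishes. The genes spread from 70.6 TPM for Prdx4 to 1480 TPM for Prdx1 in the mean of 8 dishes, while the dishes of one gene lie close together in both groups.

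After 1 h of Opti-ELF-WMF none of the 10 transcripts differed between the groups past the threshold. By limma on log2(TPM + 1) with Benjamini-Hochberg adjustment over all tested genes, the smallest adjusted p-value among the members was 0.175 (Prdx6), and the adjusted p-value was under 0.05 for 0% of all tested genes as well, that is for 0 of 12122, while an unadjusted p-value under 0.05 was found for 1451 higher and 443 lower genes. All 10 log2 fold changes were positive, from 0.02 for Gpx1 to 0.12 for Prdx6, as were those of 63.7% of all tested genes. Their median was 0.07, against 0.026 for all tested genes. After median-of-ratios scaling 8 of the 10 were positive, with a median of 0.04, against -0.0013 for all tested genes. Cat and Gpx1 turned negative (-0.0081 and -0.0088). The same scaling brought Sod1 to 0.04, Sod2 to 0.05, Prdx1 to 0.05, Prdx2 to 0.02, Prdx3 to 0.02 and Prdx4 to 0.04. Each of these values is less by over 1.5 times. Prdx5 went from 0.096 to 0.066 and Prdx6 from 0.12 to 0.091. All 10 members fell by a similar amount on the log2 scale, so the ratios follow the size of the starting value. The values of Cat and Gpx1 are so near 0 that leaving out 1 dish moved them between 0.0039 and 0.042 and between 0.0086 and 0.036. An unadjusted limma p-value under 0.05 with a higher level was found for 3 members, Prdx1, Prdx5 and Prdx6, and for 12% of all tested genes. None of the members was lower at that limit, where 3.65% of all tested genes were. The 3 members at that limit became 0 after median-of-ratios scaling, where 5.55% of all tested genes were higher. They became 1 (Prdx6) after rescaling without the mitochondrial genome, where 5.72% were.

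The count of 3 also moved with single dishes. It was 6 without control replicate 1, where 10.7% of all tested genes were higher at that limit. That dish held the highest control value of 5 members (Sod1, Sod2, Prdx1, Prdx2 and Prdx5). The count was 1, Prdx6, without control replicate 2, 3 or 4 or without Opti-ELF-WMF replicate 1. The shares of all tested genes there were 9.6%, 10.2%, 10.5% and 13.4%. The count was 2 without Opti-ELF-WMF replicate 2 (Prdx1 and Prdx6), beside 8.79% of all tested genes. In other settings the count stayed at 3 while the members changed. They were Prdx4, Prdx5 and Prdx6 without Opti-ELF-WMF replicate 3, beside 11% of all tested genes. Without Opti-ELF-WMF replicate 4 they were Prdx1, Prdx3 and Prdx6, beside 11.9%. With every gene above 0 TPM in any sample they were Prdx3, Prdx4 and Prdx6, beside 6.82%. Prdx6 was the member common to the settings in which at least 1 was counted.

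**Figure D2:**
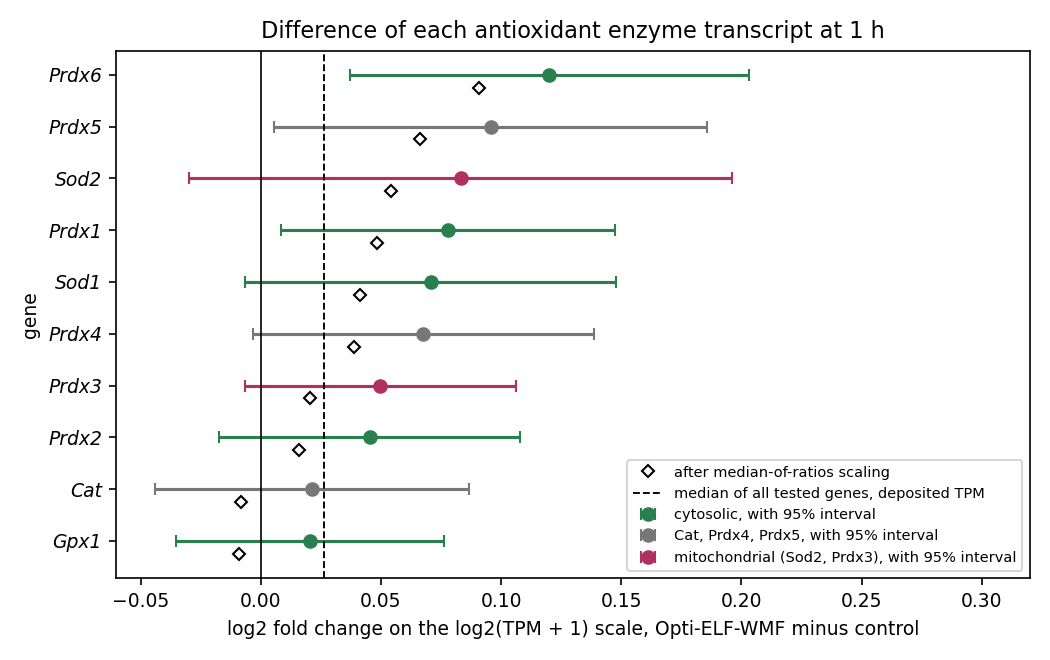
Log2 fold change of each member on the log2(TPM + 1) scale (points, exposed minus control) with its 95% limma interval, coloured by compartment, and the same difference after median-of-ratios scaling (open diamonds). On deposited TPM all 10 points lie above 0, Cat and Gpx1 lie just under the dashed median of all tested genes, and after scaling those same 2 diamonds lie below 0.

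The superoxide dismutases came first in the order of the pathway. Sod1 (ENSMUSG00000022982, chromosome 16 from 90220754 to 90226329) had 397, 372, 354 and 383 TPM in control replicates 1 to 4 and 399, 395, 386 and 401 TPM in the exposed replicates. The control dishes were the more scattered, and control replicate 1 reached the exposed range. On the log2 scale Sod1 was 0.07 higher with a standard error of 0.03 (limma adjusted p = 0.364), and 0.04 higher without control replicate 3, its lowest dish. Sod2 (ENSMUSG00000006818, chromosome 17 from 13006846 to 13040063) had 85.9, 81.6, 72.9 and 77.9 TPM in control dishes and 81.6, 89.3, 83.1 and 83.1 TPM in exposed dishes. Only exposed replicate 2 stood above all control dishes. For Sod2 the log2 fold change was 0.08 with a standard error of 0.05, the widest of the members (limma adjusted p = 0.471), and its 95% interval ran from -0.03 to 0.20. Without control replicate 3, again the lowest dish, it was 0.04, and without exposed replicate 2, the highest, it was 0.06. One Sod2 transcript shares 3110 bases at 98.3% identity with a transcript of Rps6ka2, which had a mean of 6.76 TPM, so part of the reads of Sod2 could have been assigned to either gene. Gm36684 matches over 3108 bases and had 0.655 TPM. A further 7 genes match over at most 193 bases, among them Churc1 with 31.1 TPM and Tmem245 with 11.0 TPM. Together the levels of these genes came to 61.6% of that of Sod2, and how much of this is shared reads was not tested, so the Sod2 values are uncertain. Ccs, the chaperone that loads copper into Sod1, had 86.1 ± 4.1 TPM (SD, n = 4) in controls and 86.6 ± 1.0 TPM (SD, n = 4) after exposure. Sod3, the secreted dismutase, did not exceed 0.01 TPM in any dish.

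Cat works in peroxisomes and Gpx1 mainly in the cytosol, and both had the smallest differences of the members. Cat (chromosome 2 from 103453849 to 103485160) had 296, 292, 290 and 301 TPM in control dishes and 286, 306, 310 and 294 TPM in exposed dishes. The exposed dishes lay on both sides of the control dishes. The log2 fold change was 0.02 with a 95% interval from -0.04 to 0.09, or from 0.97-fold to 1.06-fold (limma adjusted p = 0.785). Gpx1 (chromosome 9 from 108338903 to 108340343) had 478, 492, 475 and 503 TPM in control dishes and 496, 503, 486 and 490 TPM in exposed dishes. The groups overlapped almost fully. Its log2 fold change was also 0.02, with a 95% interval from -0.04 to 0.08 (limma adjusted p = 0.749).

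Among the typical peroxiredoxins, which work as pairs with a cysteine from each partner, the cytosolic Prdx1 and Prdx2 and the mitochondrial Prdx3 had small positive differences. Prdx1 (chromosome 4 from 116685544 to 116700822) had 1477, 1427, 1434 and 1422 TPM in control dishes and 1569, 1481, 1579 and 1455 TPM in exposed dishes. Exposed replicates 1 and 3 stood well above the controls, and exposed replicate 4 lay below control replicate 1. Its log2 fold change was 0.08 with a standard error of 0.03 (limma adjusted p = 0.261). The near-identical copies Gm21399 and Gm7204, which could share its reads, summed to a mean of 2.38 TPM.

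Prdx2 (chromosome 8 from 84969587 to 84974834) had 417, 399, 397 and 392 TPM in control dishes and 424, 422, 406 and 403 TPM in exposed dishes. Control replicate 1 lay inside the exposed range, and the log2 fold change was 0.05 (limma adjusted p = 0.480). Exons of Prdx2 overlap those of Junb and Rnaseh2a on the opposite strand by 173 and 177 bases, and how strand was used in quantification is not given in the sources used here. Prdx3 (chromosome 19 from 60864051 to 60874556) had 140, 142, 144 and 140 TPM in control dishes and 150, 145, 147 and 143 TPM in exposed dishes. The groups met only where exposed replicate 4 lay below control replicate 3. Prdx3 was thus 0.05 higher on the log2 scale, with a standard error of 0.03 (limma adjusted p = 0.382).

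Prdx4 (chromosome X from 155323918 to 155340754) had 69.9, 70.2, 69.7 and 66.0 TPM in control dishes and 72.8, 73.1, 69.5 and 73.8 TPM in exposed dishes. The low dish of each group set the spread, and the log2 fold change was 0.07 (limma adjusted p = 0.346). Prdx5, an atypical peroxiredoxin found in mitochondria, peroxisomes and cytosol (chromosome 19 from 6906697 to 6910106), had 367, 318, 333 and 339 TPM in control dishes and 369, 364, 353 and 362 TPM in exposed dishes. Exposed dishes were close together, and control replicate 1 was as high as they were. The log2 fold change was 0.10 with a standard error of 0.04 (limma adjusted p = 0.290), and it was 0.13 without control replicate 1 and 0.06 without control replicate 2, its highest and lowest control dishes. Its exons share 409 bases with Trmt112 on the opposite strand, which had a mean of 139 TPM.

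Prdx6, the peroxiredoxin with a single catalytic cysteine, which also acts on phospholipids and relies on glutathione (ENSMUSG00000026701, chromosome 1 from 161240112 to 161251219), had the largest difference of the members. Prdx6 measured 399, 407, 415 and 382 TPM in control dishes and 462, 424, 440 and 418 TPM in exposed dishes. Every exposed dish was above every control dish, by as little as the step from 415 to 418 TPM. Prdx6 had a log2 fold change of 0.12 with a standard error of 0.04, a 1.09-fold difference with a 95% interval from 1.03-fold to 1.15-fold (limma adjusted p = 0.175). Prdx6 was the only member whose groups did not overlap in this direction, as were those of 8.01% of all tested genes, and 8.80% of tested genes had a larger log2 fold change. After median-of-ratios scaling the difference was 0.09 (limma adjusted p = 0.467), no member had all exposed dishes above all control dishes, and 3.80% of tested genes did.

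Comparing the mitochondrial with the cytosolic enzymes, the difference between the groups was 0.067 on the log2 scale on each side. The mean log2(TPM + 1) of Sod2 and Prdx3 was 6.74 ± 0.04 (SD, n = 4) in controls and 6.81 ± 0.03 (SD, n = 4) after exposure. The mean of the 5 cytosolic members Sod1, Gpx1, Prdx1, Prdx2 and Prdx6 was 9.06 ± 0.02 (SD, n = 4) in controls and 9.12 ± 0.03 (SD, n = 4) after exposure. No test was run on these means, because they are scores over chosen genes. The cytosolic mean was higher in every exposed dish than in every control dish, from 9.04 to 9.08 against 9.09 to 9.16, and the mitochondrial means overlapped. After median-of-ratios scaling both differences were 0.04 and both sets of dishes overlapped.

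The balance between the compartments therefore moved by less than the spread between dishes. Per dish, the mitochondrial mean minus the cytosolic mean was -2.30, -2.29, -2.34 and -2.33 in control dishes and -2.36, -2.27, -2.32 and -2.31 in exposed dishes. The exposed dishes enclosed the control dishes, and the group means differed by -0.00041 on the log2 scale, with a within-group SD of 0.03. Sod1 was 4.74 ± 0.18 times (SD, n = 4) as abundant as Sod2 in controls and 4.70 ± 0.21 times (SD, n = 4) after exposure. Prdx1 was 10.2 ± 0.3 times (SD, n = 4) as abundant as Prdx3 in controls and 10.4 ± 0.3 times (SD, n = 4) after exposure. For Prdx2 over Prdx3 the ratio was 2.84 ± 0.10 (SD, n = 4) and 2.83 ± 0.06 (SD, n = 4). In each of these 3 ratios the groups overlapped.

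**Figure D3:**
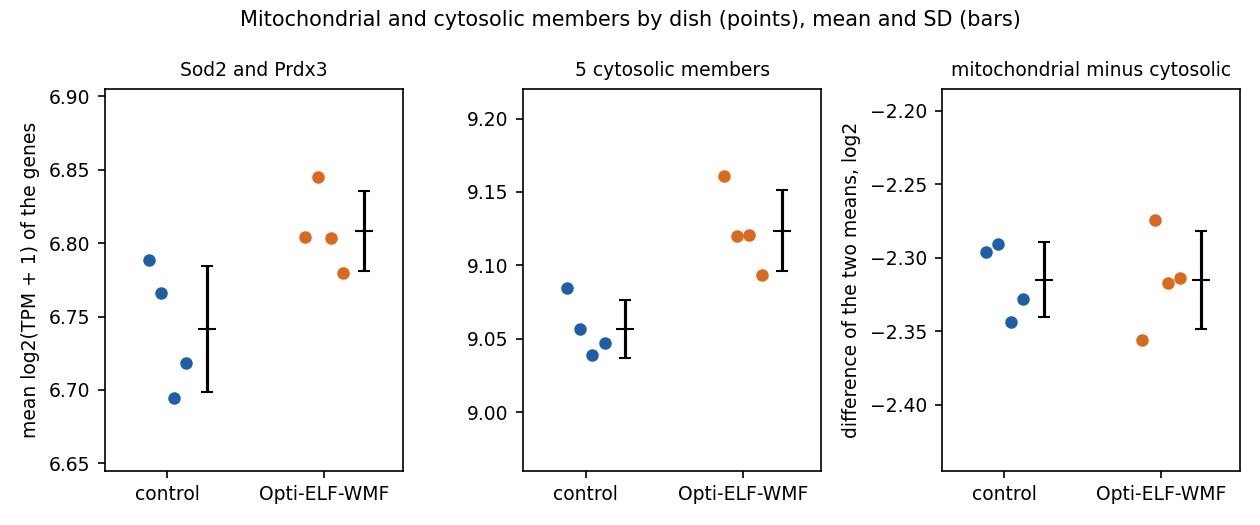
Mean log2(TPM + 1) per dish of Sod2 and Prdx3 (left), of the 5 cytosolic members (middle) and the difference between these means (right), for control (blue) and Opti-ELF-WMF (orange) dishes, with group mean and SD as bars. The 3 vertical axes span the same distance, both means are 0.067 higher in exposed dishes, and the difference is centred near -2.31 in both groups.

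The within-group SD of the members on the log2 scale lay between 0.03 (Prdx3) and 0.08 (Sod2), with a median of 0.043, against a median of 0.078 over all tested genes, so that Sod2 was above the typical gene. On deposited TPM the 95% intervals of the 10 members lay between 0.97-fold and 1.15-fold, so larger changes than these fell outside every interval there. These intervals are not adjusted for the number of genes. All 10 differences were lower after median-of-ratios scaling, and intervals for that setting are not given here. The pattern of Sod2 over the 8 dishes was most like that of Mrps31, Bbc3 and Dut, with root mean square differences of 0.020, 0.023 and 0.028 on the centred log2 scale. That of Prdx3 was most like Txndc17, Arpc5 and 2900097C17Rik, with 0.013, 0.014 and 0.015 over 8 dishes. Prdx3 itself varied little, and only 4.04% of tested genes varied less over the 8 dishes.

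The enzymes around the members were read from 5 lists with 65 symbols, of which 62 were in the files and 45 passed the abundance filter. Among these 45 the limma adjusted p-value was under 0.05 for 0, and the unadjusted p-value was under 0.05 for 5 higher genes and 1 lower gene, beside 12% and 3.65% of all tested genes. The thioredoxin and glutaredoxin partners held 4 of the 5. Txn1, the cytosolic thioredoxin, had 263 ± 12 TPM (SD, n = 4) in controls and 278 ± 6 TPM (SD, n = 4) after exposure, a difference of 0.08 on the log2 scale (limma adjusted p = 0.309). Txn2, the mitochondrial thioredoxin that serves Prdx3, had 201 ± 5 TPM (SD, n = 4) and 212 ± 7 TPM (SD, n = 4), also 0.08 (limma adjusted p = 0.248). After median-of-ratios scaling neither had an unadjusted p-value under 0.05.

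Srxn1, sulfiredoxin, which repairs overoxidised typical peroxiredoxins, had 30.5, 29.6, 33.2 and 31.6 TPM in control dishes and 32.9, 33.3, 37.9 and 35.8 TPM in exposed dishes. Control replicate 3 lay inside the exposed range, and the log2 fold change of 0.16 was the largest of the list (limma adjusted p = 0.202). Median-of-ratios scaling gave 0.13, and Srxn1 was the only gene of its list that then had an unadjusted p-value under 0.05. In that setting 5.55% of all tested genes were higher at the same limit. Glrx3, a glutaredoxin that handles iron-sulfur clusters, had 240 ± 3 TPM (SD, n = 4) in controls and 254 ± 8 TPM (SD, n = 4) after exposure, without overlap (log2 fold change 0.08, limma adjusted p = 0.188). All exposed dishes lay above all control dishes for 8.01% of all tested genes. The reductases Txnrd1 (0.04), Txnrd2 (-0.01) and Txnrd3 (0.12) had limma adjusted p-values of 0.636, 0.955 and 0.492. Txnrd3 was low, with 4.24 ± 0.45 TPM (SD, n = 4) in controls and 4.66 ± 0.13 TPM (SD, n = 4) after exposure. Median-of-ratios scaling gave 0.09 for Txnrd3. In that list 12 of 16 differences were positive, beside 63.7% of all tested genes. After median-of-ratios scaling 8 of 16 were positive, where the median of all tested genes was -0.0013.

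Glutathione supply had 9 tested genes, all with positive differences, from 0.03 to 0.12, beside 63.7% of all tested genes, and none with an unadjusted p-value under 0.05. Its members include Gclc and Gclm, the subunits of the enzyme that limits glutathione synthesis, at 340.2 ± 2.2 and 220 ± 8 TPM in control dishes (SD, n = 4 each), and Gsr, which regenerates glutathione, at 283 ± 10 TPM (SD, n = 4). After median-of-ratios scaling 8 of the 9 were positive, with a median of 0.017, against -0.0013 for all tested genes. Of the other superoxide and peroxide enzymes 4 of 10 were abundant enough to test. Of these 1 was positive and 3 were negative, beside 63.7% of all tested genes that were positive. After median-of-ratios scaling 0 were positive and 4 were negative. Gpx4 was the most abundant of them, with 673 ± 16 TPM (SD, n = 4) in controls and 662 ± 19 TPM (SD, n = 4) after exposure, a difference of -0.03 on the log2 scale (limma adjusted p = 0.722). Gpx4 was thus more abundant than Gpx1 in every dish.

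For the genes that make selenoproteins such as Gpx1, 1 of 5 had an unadjusted p-value under 0.05, where 12% of all tested genes were higher and 3.65% lower. Eefsec, the elongation factor that brings selenocysteine to the ribosome, had 20.5 ± 0.7 TPM (SD, n = 4) in controls and 22.6 ± 1.0 TPM (SD, n = 4) after exposure, without overlap (log2 fold change 0.13, limma adjusted p = 0.197). The same lack of overlap was found for 8.01% of all tested genes. The log2 fold change of Eefsec was 0.10 under both scalings. Its unadjusted p-value stayed under 0.05 when TPM was rescaled without the mitochondrial genome but not after median-of-ratios scaling. Among oxidant producers 11 of 23 listed symbols were tested, 4 positive and 7 negative, where 63.7% of all tested genes were positive. After median-of-ratios scaling 1 was positive and 10 were negative, where the median of all tested genes was -0.0013. Nox4, the only catalytic NADPH oxidase subunit of the list that passed the filter, had 33.8 ± 0.3 (SD, n = 4) and 35.3 ± 1.9 TPM (SD, n = 4). Acox3, a peroxisomal oxidase that makes hydrogen peroxide from branched fatty acids, had 26.3 ± 2.6 TPM (SD, n = 4) in controls and 23.5 ± 0.6 TPM (SD, n = 4) after exposure, a difference of -0.15 on the log2 scale (limma adjusted p = 0.298). Median-of-ratios scaling gave -0.18 for Acox3.

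**Figure D4:**
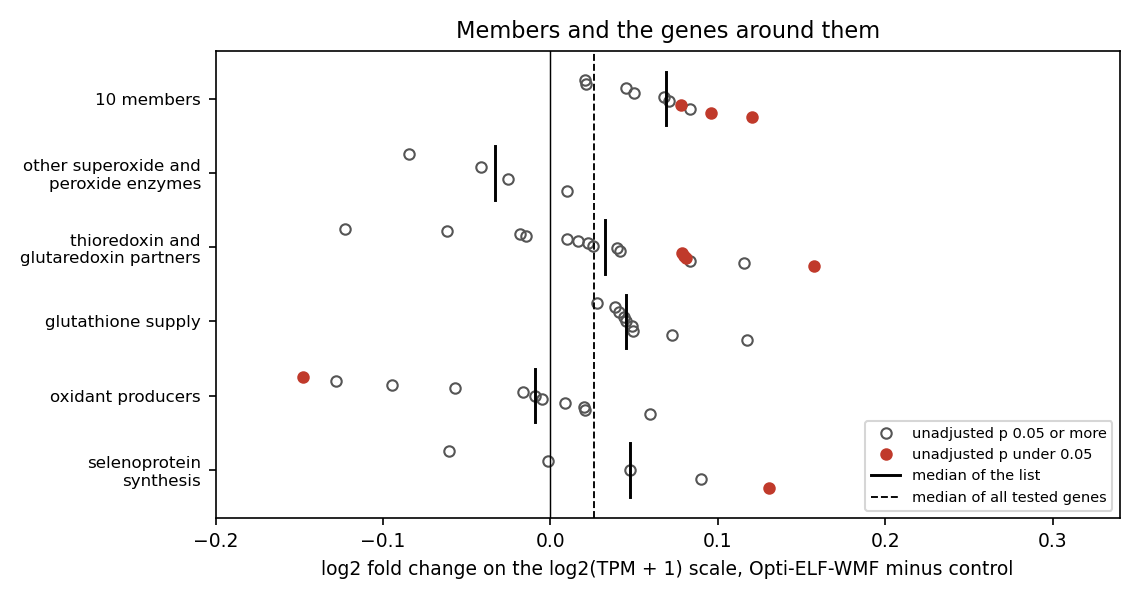
Log2 fold change (exposed minus control, log2(TPM + 1) scale) of the 10 members and of the tested genes of the 5 surrounding lists, with 1 point per gene, red where the unadjusted limma p-value was under 0.05, a bar at each list's median and a dashed line at the median of all tested genes. The points lie between -0.15 and 0.16, and the red points are 3 of the members, 5 higher genes and 1 lower gene of the lists.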

How the data were processed

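The authors deposited TPM values, 1 table per dish, each summing to 1000000. The submitters' processing notes name Trimmomatic 0.39, STAR 2.7.4a, RSEM 1.3.3 and mm10. The annotation and the use of strand are not given in the sources used here. TPM keeps no sequencing depth, so the counting error of a value is unknown. Genes reaching 1 TPM in 4 or more of the 8 samples were tested on log2(TPM + 1) with limma 3.58.1 (trend, R 4.3.3) and Benjamini-Hochberg adjustment, and tested on simulated data. The pseudocount of 1 understates the change of low genes. Positions come from GENCODE M21, which held 55141 of 55401 identifiers. Transcripts were compared with blastn 2.17.0 on the same strand (at least 95% identity over at least 150 bases). The members and lists were chosen with earlier results of these data known. All 10 members are named, and from the lists mainly genes with an unadjusted p-value under 0.05. The pattern likeness excludes other members. Alternatives covered the pseudocount, filter, scaling, trend, replicate block, sides of the compartment comparison and leaving out each dish. Pairs of dishes held identical values for at most 3.79% of genes above 0, so no sample was a copy of another. That cannot show that the samples were independent. Each was counted as a sample. Whether dishes with the same number were paired is not given in the sources used here, and they were treated as unpaired.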

Additional observations from a re-analysis of the deposited data

Results flagged for a closer look

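Prdx4 in control replicate 4, at 65.99 TPM, stood apart from the other control dishes, which lay between 69.72 and 70.24 TPM, by Dixon's criterion for 4 values. This was 1 of 32 groups of 4 dishes examined, where chance gives about 1.6. Without that dish the log2 fold change of Prdx4 was 0.05.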

How the results depend on the processing

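The 10 log2 fold changes were recomputed under 15 alternatives each. Of 150 values 146 kept their direction, and none had a limma adjusted p-value under 0.05. The other 4 were Cat (-0.0081 and -0.0085) and Gpx1 (-0.0088 and -0.0092), which turned negative under median-of-ratios scaling and under rescaling without the mitochondrial genome, and the cause was not tested. Members with a positive difference numbered 8 in both of these, and 10 with every dish left out in turn. Members higher with an unadjusted p-value under 0.05 numbered 0 under median-of-ratios scaling, 1 under rescaling, 1 without the trend, and from 1 to 6 with a dish left out. Over all genes 673 were higher and 755 lower under median-of-ratios scaling, so that 47.1% of them were higher against 76.6% on deposited TPM (1451 and 443), 693 and 675 under rescaling, and 832 lower with every gene above 0 in any sample. With each dish left out from 1066 to 1625 were higher and from 330 to 513 lower. An adjusted p-value under 0.05 was found for 1 gene under median-of-ratios scaling, with TPM of at least 1 in every sample and without the trend (1110028F11Rik each time), and for 0 to 2 genes with a dish left out. The mitochondrial minus cytosolic difference lay between -0.014 and 0.013 with a dish left out, and other sides gave -0.012 without Gpx1, 0.0093 with Prdx5 and -0.0077 for summed TPM, all within the spread between dishes. Deviations of dishes with the same number were uncorrelated across genes (mean r -0.0126), so no shared deviation was seen. That cannot settle whether the numbers mark pairs. With the replicate block, 4 members were higher at an unadjusted p-value under 0.05 (Sod1 in addition), beside 11.8% of all tested genes. In that setting 0 genes passed after adjustment, and the compartment difference was -0.00041. Tests that need read counts were not run, because the values are TPM. TPM keeps no depth, so counting error could not be told from the spread between dishes.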
